A study of Mus musculus with 2 samples.

Results

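The genes described here are the 10 genes that carry or control antigen display on MHC class II in the mouse: Ciita, Cd74, H2-Ab1, H2-Aa, H2-Eb1, H2-DMa, H2-DMb1, H2-DMb2, H2-Oa and H2-Ob. They were listed by name from 21631 protein-coding genes, with no signal threshold in the choice, but earlier results of these data were known when they were listed. The transcription factor IRF4 was mapped along the genome by ChIP-seq (immunoprecipitation of chromatin with an antibody to IRF4, then sequencing) in CH12.LX, an immortalised mouse B-cell lymphoma line of strain B10.H-2aH-4bp/Wts. The 2 samples are biological replicates 1 and 2 of 1 group, with no treatment and no second genotype named in the labels. Binding was taken from the list of peaks that the depositors kept as reproducible by the irreproducible discovery rate (IDR), called the optimal list, with 44058 peaks on mm10. A summit, the highest point of a peak, was assigned to a gene where it lay in the RefSeq gene body or within 10 kb of either end. This gave 36 distinct summits, each counted once where ranges overlapped, and 4 of them lay in range of more than 1 of the genes.

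MHC class II molecules carry peptides from the endosomal route to the cell surface, where helper T cells read them, and B cells express them throughout much of their life. Ciita encodes the coactivator that switches the whole set on, by joining RFX, CREB and NF-Y proteins on the X and Y boxes of each class II promoter. In B cells Ciita is read mainly from an internal promoter, and plasma cells silence it. IRF4 binds weakly by itself and, with the ETS factors PU.1 or Spi-B, sits on the ETS-IRF composite element (EICE).

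The signal of a peak is the depositors' value, on a scale not given in the sources used here, and it ranks peaks within 1 list only. Read numbers are not stated, which leaves the sequencing depth unknown. Over 37635 optimal peaks matched within 100 bp in both replicates, the median log2 ratio of replicate 2 to replicate 1 was 0.53, with an SD of 0.66. Pairs of replicate signals below should be read against that offset. With 1 group and 2 replicates no test between conditions was possible, and nothing in the labels says that the replicates came from separate cultures. The strain label names the MHC type H-2a, whereas the reference sequence is that of C57BL/6J, which carries another type. Class II genes are among the most variable of the genome, and the part of that mismatch in the signals at H2 genes was not tested.

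IRF4 summits lay in range of all 10 genes, but their strength was split. All 10 had one in the optimal list, against 62.3% of all protein-coding genes, and all 10 in the stricter conservative list, against 57.4%. The strong sites were in range of Ciita, Cd74, H2-DMa with H2-DMb2, and H2-Oa. The strongest summit in range of H2-Ab1, H2-Aa, H2-Eb1, H2-DMb1 and H2-Ob had a signal between 49.1 and 63.2. A summit of signal 100 or more was in range of 5 of the 10 genes, against 15.3% of all protein-coding genes, and one of 200 or more in range of 4, against 4.36%. Those 4 genes rest on 3 regions, because H2-DMa and H2-DMb2 share one. The median signal of the 36 summits was 53.2, against 41.4 for the whole optimal list, and the median of their percentiles in that list was 65.2. The strongest 44058 peaks of the relaxed list of replicate 1 alone, with no IDR step, put 48 summits in range. The median percentile of these in that list was 46.3, below its middle. For replicate 2 alone there were 37 summits, with a median percentile of 59.9. Of the 36 summits, 10 were in the strongest quartile of the optimal list and 6 in the weakest. The summits numbered 12.8 per 100 kb of covered sequence, against 2.57 per 100 kb over the ranges of all protein-coding genes. The conservative list held 31 of the 36 summits, or 86.1%, against 72.3% of the whole optimal list.

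**Figure D1:**
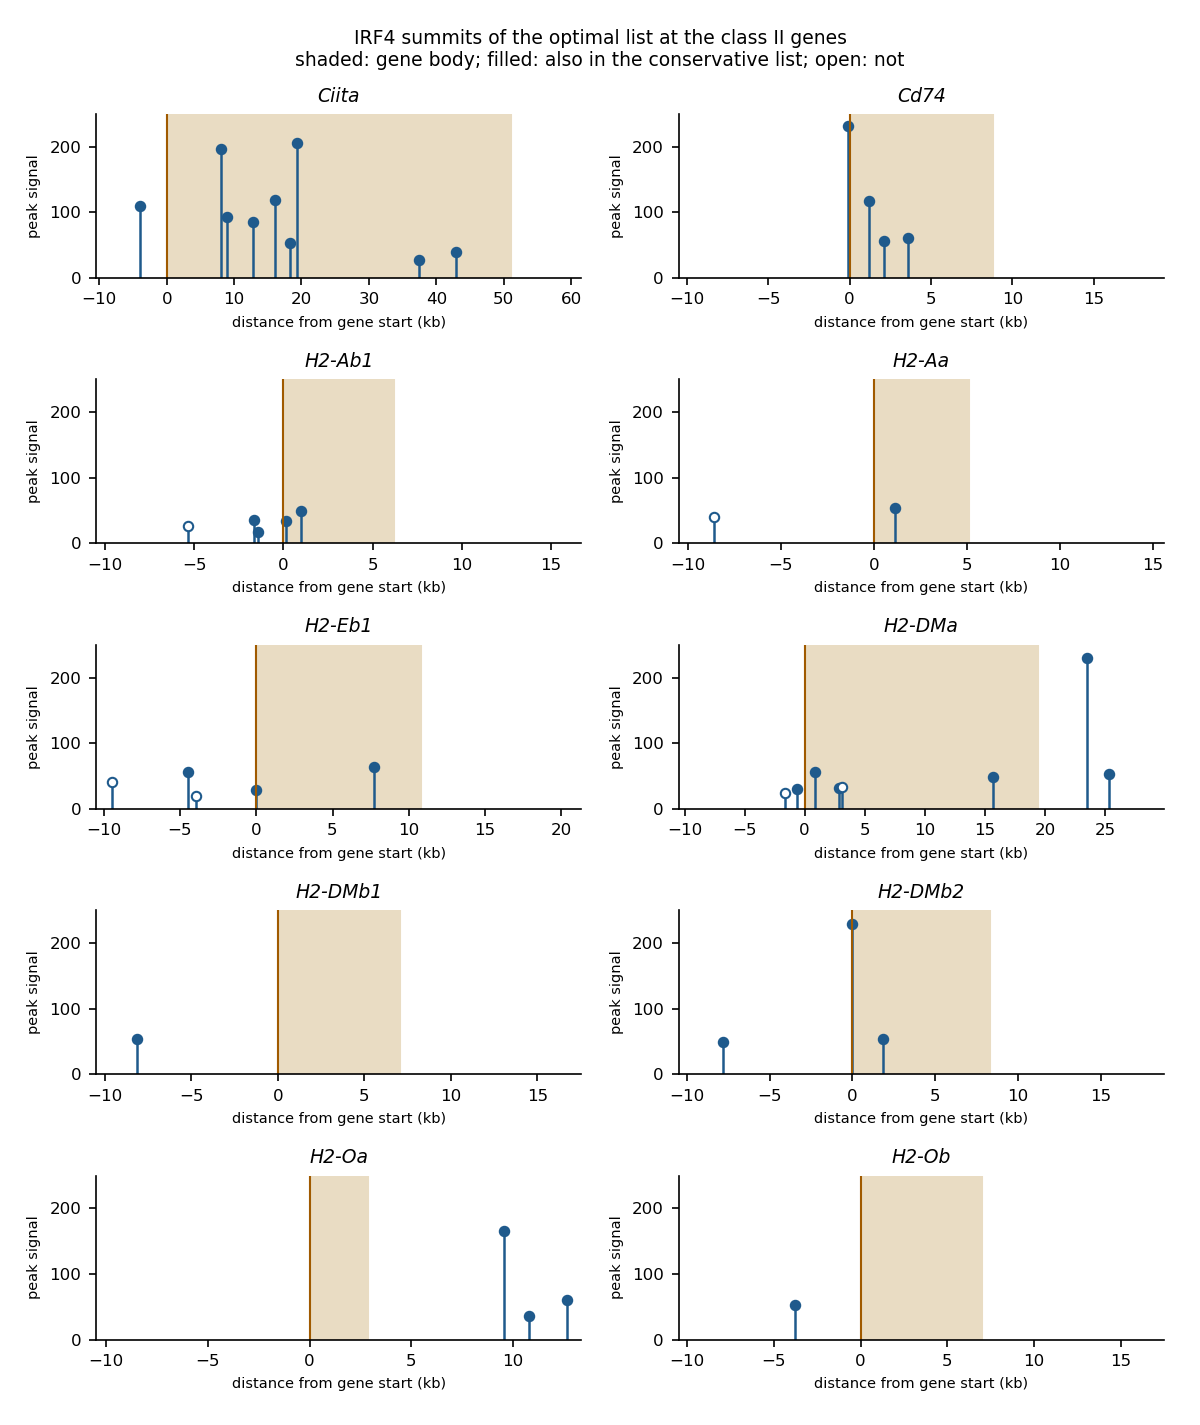
Signal of each optimal summit (vertical axis, depositors' units) against its distance from the gene start (horizontal axis, kb, positive into the gene) for the 10 genes. The shaded span is the gene body, filled points are also in the conservative list and open points are not. The highest points stand at the starts of Cd74 and H2-DMb2 and inside Ciita, and H2-Ab1, H2-Aa and H2-Eb1 stay below 64 throughout.

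The 4 strongest sites shared a sequence element. Windows are shown for 3 of the 4 strongest sites, at H2-DMb2 and Ciita, and for a site of middling signal with the same element. Sequence of the files' build was at hand for the separate mm9 list of 27671 peaks, made from both replicates together, which held 27 summits in range of the 10 genes. The 4 strongest of these, at H2-DMb2 (signal 422), Cd74 (381) and Ciita (366 and 329), all held the EICE motif (GGAA, 2 free bases, then GAAA) within 50 bp of the summit on either strand. The fifth, at H2-Oa (249.97), held none. Of the 10 summits of the genes in the strongest quartile of the mm9 list, only these 4 held an EICE. In all 6 of the 27 summits had an EICE, against 8.68% of all 27671 mm9 summits and 15.8% of their strongest quartile. The windows of 50 bp either side of 4 of the 6 summits are written as the plus strand of mm9, with the EICE in capitals, and a match is a description of letters, not proof of a bound site.
Ciita internal start, chr16:10488143-10488243: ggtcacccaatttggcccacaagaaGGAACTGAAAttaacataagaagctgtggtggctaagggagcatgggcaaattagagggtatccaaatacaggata
Ciita intragenic site, chr16:10499407-10499507: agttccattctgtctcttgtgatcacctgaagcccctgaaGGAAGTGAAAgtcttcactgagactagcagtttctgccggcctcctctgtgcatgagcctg
H2-DMb2 start, chr17:34280061-34280161: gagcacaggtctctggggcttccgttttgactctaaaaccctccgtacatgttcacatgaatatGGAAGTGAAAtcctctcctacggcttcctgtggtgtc
H2-Aa gene body, chr17:34423608-34423708: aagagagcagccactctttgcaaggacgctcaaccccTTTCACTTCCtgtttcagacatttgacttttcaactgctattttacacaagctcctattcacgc
The word GGAAGTGAAA was in the windows of the second Ciita site, H2-DMb2 and H2-Aa, where it reads on the minus strand, and was in 2.84% of all mm9 windows. The centre of the EICE lay 21 bp and 6 bp from the Ciita summits, 18 bp from the H2-DMb2 summit, 20 bp from the Cd74 summit and 9 bp from the H2-Aa summit. The H2-Aa site had a signal of 70.5, close to the median of 70.1 over the mm9 list, so the element was also at a site of middling signal. H2-Oa had the sixth EICE, GGAAAAGAAA, beside the tandem IRF element (GAAA, 2 free bases, then GAAA, in 5.79% of all mm9 windows), at a weaker downstream summit of signal 74.1. A further H2-Oa summit of signal 56.6 held the tandem element without EICE. Neither AP-1-IRF composite (GAAA directly before TGANTCA, in 1.13% of all mm9 windows, or TTTC 4 bases before TGANTCA, in 1.12%) was in any of the 27 windows. An AP-1 site (TGANTCA) was in 1 of the 27, at Ciita, against 16.04% of all mm9 summits.

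**Figure D2:**
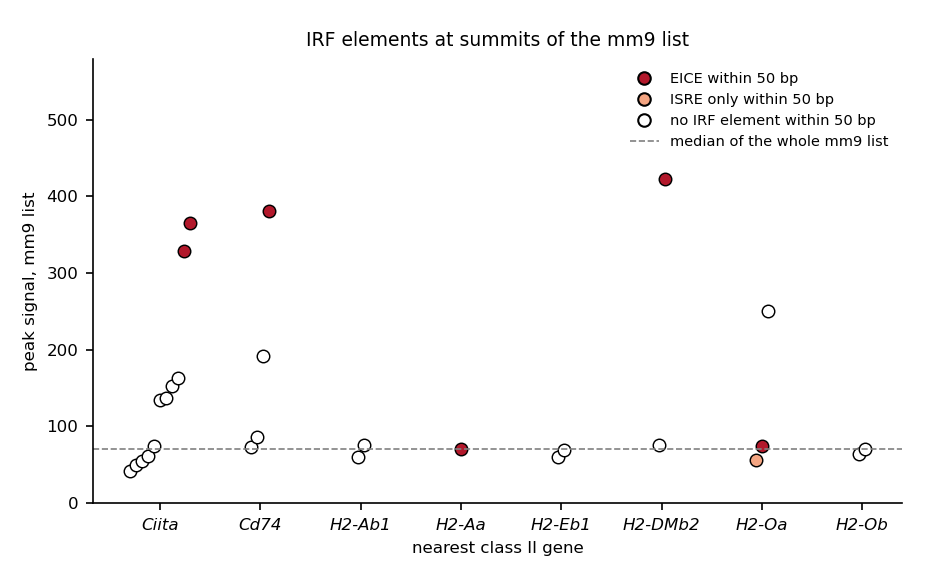
Signal in the mm9 list (vertical axis, depositors' units) of the 27 summits, by the nearest of the genes (horizontal axis). Dark points have an EICE within 50 bp, the pale point a tandem IRF element only, open points neither; the dashed line is the median of the whole mm9 list, 70.1. The 4 highest points, between 329 and 422, are all dark.

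Ciita, the coactivator gene (chromosome 16, 10480014 to 10531064, plus strand, mm10), held the most summits, 9, of which 8 were in the gene body and all were in the conservative list. It is also the longest of the 10 genes. Per 100 kb of range it had 12.7 summits, where the genes ran from 3.70 at H2-DMb1 to 20.3 at H2-DMa. None lay within 1 kb of the annotated gene start. The strongest (10499283 to 10499418) was 19335 bp into the gene with a signal of 206 in the optimal list, 129 in replicate 2 and 73.6 in replicate 1. The next (10488045 to 10488178) was 8081 bp in, with 197 in the optimal list, 118 in replicate 2 and 81.3 in replicate 1. On mm9, where transcripts were annotated, 4 of 6 Ciita transcripts started 8034 to 8155 bp after the first. The mm9 summit nearest to them lay 7956 bp after the first start, which is 78 bp before the start of transcript Ciita-204. In that list a strong site thus stood at an internal start. On mm10 the outer start had no optimal summit within 1 kb. The strongest relaxed peak within 1 kb of the outer start ranked 137396 of the 300000 in the pooled list, with a signal of 10.4.

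Of the other Ciita summits, 4 lay between these. Their signals were 93.4 at 8916 bp, 85.8 at 12796 bp, 119 at 16119 bp and 52.9 at 18295 bp from the start. In replicate 2 these were 51.2, 48.6, 83.8 and 38.5, and in replicate 1 they were 40.4, 40.7, 36.5 and 13.7. The log2 ratio of the replicates was 0.34, 0.26, 1.198 and 1.49 at these sites. The last pair differed most between the replicates among the Ciita sites. A site 3937 bp upstream had 109.6 in the optimal list, 56.7 in replicate 2 and 52.6 in replicate 1. The far end of the gene had only weak sites, of 26.8 at 37373 bp and 39.0 at 42990 bp. Chromosome 16 as a whole had a median signal of 43.1, and 99 of its 2241 optimal peaks were stronger than the strongest Ciita site.

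Cd74 encodes the invariant chain, which chaperones new class II molecules and blocks their groove until they reach the endosome. Its strongest summit (chromosome 18, 60803667 to 60803827, mm10) lay 119 bp upstream of the start, with a signal of 231, the highest of the 36. The replicates gave 111 in replicate 2 and 118 in replicate 1, so this was 1 of 7 matched summits that were higher in replicate 1. Over all matched optimal peaks, 82.8% were higher in replicate 2. This Cd74 summit ranked 889 in the optimal list. A further 3 summits lay in the gene body, at 1173 bp (118), 2096 bp (55.8) and 3601 bp (60.1). In replicate 2 they had signals of 68.4, 31.0 and 38.0, and in replicate 1 of 47.3, 23.1 and 23.3. All 4 were in the conservative list, and no optimal summit lay in the last part of the gene or in the 10 kb after it.

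H2-DMa encodes the alpha chain and H2-DMb1 and H2-DMb2 encode alternative beta chains of H2-M, which removes the invariant chain fragment and edits the peptide. The region in the H2-DM genes was dominated by 1 site (chromosome 17, 34143081 to 34143286, mm10), 49 bp upstream of the annotated start of H2-DMb2 and within 10 kb of the end of H2-DMa. Its signal was 229.7, with 133 in replicate 2 and 97.8 in replicate 1, and it ranked 906. In the mm9 list the strongest summit of the genes lay 141 bp before the first H2-DMb2 start of that build. In the optimal list on mm10 the strongest was that of Cd74. A second H2-DMb2 site, of 53.1, lay 1821 bp into the gene body, with 26.8 in replicate 2 and 24.5 in replicate 1. It is 199 bp before another H2-DMb2 start in the RefSeq promoter table, and it is the only optimal summit in range of H2-DMb1, 8141 bp upstream of that gene. No peak lay in the body of H2-DMb1 even in the relaxed pooled list, and the strongest within 1 kb of its start had a signal of 19.6, 114 bp upstream. The beta chain genes are paralogs. Of 342 alignment columns between their promoter windows, gap columns included, 61.4% were identical, so the share over paired bases alone is higher. Whether reads were lost or split between the beta chain genes was not tested.

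Within its body and around its start H2-DMa had no summit above 56.0. Summits of 23.3, 29.8 and 56.0 lay from 1620 bp before to 822 bp after its annotated start (34119693, plus strand), which falls inside Brd2, a bromodomain gene on the other strand. A pair of 32.2 and 33.4 lay close to another H2-DMa start of the promoter table, 261 bp and 47 bp before it, and 243 bp and 29 bp from the start of Brd2. Signal at this shared start cannot be given to one of the genes. The replicates differed most here among all 31 matched summits, with 29.3 in replicate 2 and 7.04 in replicate 1 at the second of the pair, a log2 ratio of 2.06. That summit was not in the conservative list. A last site of 48.5 lay 15707 bp into this RefSeq gene body and 7829 bp before the H2-DMb2 start. On mm9 the annotated H2-DMa was shorter, 34272127 to 34276046, with H2-DMb2 starting at 34280252. That mm9 start of H2-DMa is far closer to H2-DMb2 than the mm10 start is. How near the site of 48.5 lies to it was not measured, so it may not be deep in the gene.

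The genes of H2-O, the B-cell inhibitor of H2-M, had no optimal summit in the gene body. H2-Oa (alpha chain) had 3 summits, all downstream of its end. The strongest (chromosome 17, 34101755 to 34102094, mm10), 9546 bp from the start, had a signal of 166, with 98.7 in replicate 2 and 65.6 in replicate 1. The others had 35.9 at 10786 bp and 60.3 at 12667 bp. The summit at 10786 bp had 24.4 in replicate 1 and no summit of replicate 2 within 100 bp. H2-Ob (beta chain) had a single summit, 3782 bp upstream, with 53.3 in the optimal list, 28.6 in replicate 2 and 27.5 in replicate 1. At the starts, relaxed pooled peaks stood 247 bp into H2-Oa (25.9, rank 41720) and 3 bp into H2-Ob (23.5, rank 46878), and neither was in the optimal list.

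H2-Ab1 and H2-Aa encode the beta and alpha chains of I-A, and H2-Eb1 the beta chain of I-E, the classical molecules that show peptide to T cells. All 11 distinct optimal summits in range of these genes had signals from 16.7 to 63.2. H2-Ab1 had 5, of which 33.7 and 49.1 lay 115 bp and 961 bp past its start. In replicate 2 these had 14.3 and 31.1, and in replicate 1 they had 17.9 and 17.6. The other 3 lay upstream, at 1429 bp (16.7), 1633 bp (35.4) and 5351 bp (26.2), and none of the 3 was matched within 100 bp in both replicates. The site at 1429 bp had a signal of 28.1 in replicate 2 alone, and that at 1633 bp one of 13.2 in replicate 1 alone.

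H2-Aa had 1 summit in the gene body, 1141 bp from its start, with 53.9 in the optimal list, 26.9 in replicate 2 and 30.2 in replicate 1, and the mm9 site with the EICE shown above lay 1114 bp from the mm9 start. Its start had no optimal summit, but the conservative list held one 176 bp upstream (34287829 to 34288168, signal 33.8), with 22.2 in replicate 2 and 14.5 in replicate 1. It was the only conservative summit in range of the genes that the optimal list lacked. A site 8616 bp upstream of H2-Aa (40.0) was also in range of H2-Eb1. H2-Eb1 had its strongest summit, 63.2, 7684 bp into the gene, with 30.7 in replicate 2 and 32.2 in replicate 1. A weak summit of 29.1 lay 16 bp past the start, with 19.6 in replicate 2 and 12.4 in replicate 1. Upstream sites at 4485 bp and 3945 bp had 56.5 and 19.5, and the second was not in the conservative list.

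Counting starts alone, an optimal summit stood no more than 1 kb from the annotated start of 5 of the 10 genes: Cd74, H2-DMb2, H2-DMa, H2-Ab1 and H2-Eb1. The H2-DMa start counted here is the RefSeq one inside Brd2, not the later one annotated on mm9. The share over all 20923 protein-coding genes with a known start was 31.9% in the optimal list. Of the 5, the signal at the start was 231 at Cd74 and 229.7 at H2-DMb2, against 29.1 to 56.0 at the others. The count differed between lists. The 44058 strongest peaks of replicate 1 alone, with no IDR step, gave 8 genes, adding H2-Aa, H2-Oa and H2-Ob. Those of replicate 2 alone gave 5, with H2-Aa in and H2-Ab1 out. The share over all genes is not given for these replicate lists, so neither count can be set against 31.9%.

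**Figure D3:**
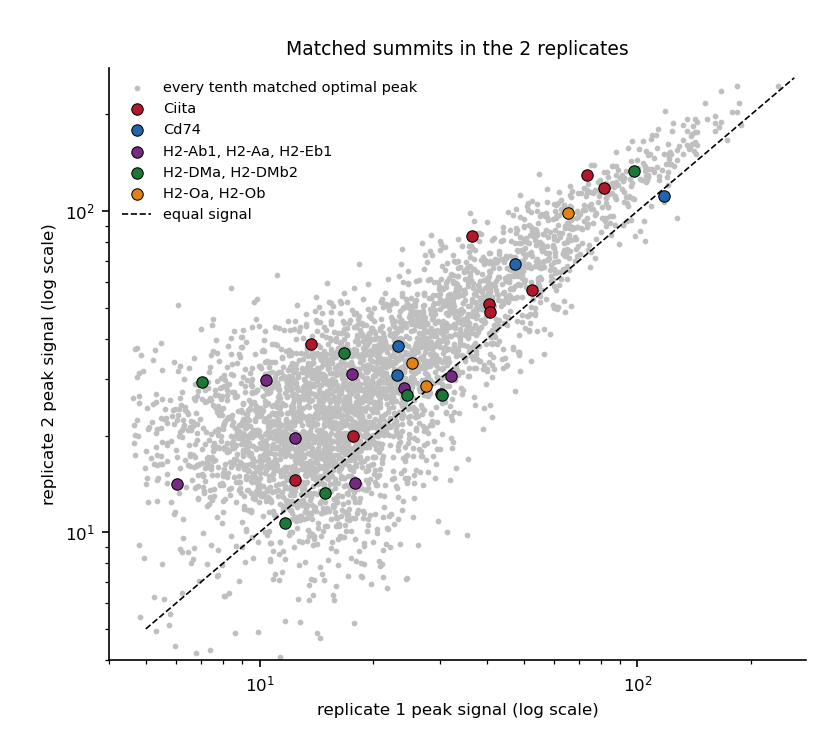
Signal of replicate 2 (vertical axis, log scale) against replicate 1 (horizontal axis, log scale), in depositors' units, at the 31 summits matched within 100 bp in both (coloured by gene) and at an evenly thinned set of all matched optimal peaks (grey). The dashed line is equal signal. Above it lie 24 of the 31 coloured points, beside 82.8% of all matched optimal peaks, and the spread is widest at low signal.

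The replicates differed less at strong peaks than at weak ones. Of the 36 summits, 31 were matched within 100 bp in both replicates, and the median log2 ratio of replicate 2 to replicate 1 over them was 0.41, with a range of -0.32 to 2.06. The median over all matched optimal peaks was 0.53 and the middle 90% of them ran from -0.53 to 1.66. The summit in the shared start of H2-DMa and Brd2 was the only one of the 31 outside that span. The SD of the ratio was 0.43 in the strongest quartile of all optimal peaks and 0.81 in the weakest.

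The boxes through which Ciita acts were looked for in promoters of the genes, and 3 promoters are shown to place the IRF4 summits against the boxes. The RefSeq promoter table (GRCm38.p6, 250 bases before to 50 after a start) had entries for 7 of the 10 genes; Ciita, Cd74 and H2-Ab1 were not among them. Capitals mark the X box (AG, 2 free bases, AC, 1 free base, then GATG) and the Y box, GATTGG, on either strand, with sequences written as the gene reads, here the plus strand.
H2-Eb1 promoter, chr17:34305617-34305916: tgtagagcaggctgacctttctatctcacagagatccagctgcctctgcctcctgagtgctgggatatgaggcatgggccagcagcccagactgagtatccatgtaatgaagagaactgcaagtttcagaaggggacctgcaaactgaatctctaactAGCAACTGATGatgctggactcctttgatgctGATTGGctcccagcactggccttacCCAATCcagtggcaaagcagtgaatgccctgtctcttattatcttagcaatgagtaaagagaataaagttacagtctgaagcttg
H2-DMb2 promoter, chr17:34144999-34145298: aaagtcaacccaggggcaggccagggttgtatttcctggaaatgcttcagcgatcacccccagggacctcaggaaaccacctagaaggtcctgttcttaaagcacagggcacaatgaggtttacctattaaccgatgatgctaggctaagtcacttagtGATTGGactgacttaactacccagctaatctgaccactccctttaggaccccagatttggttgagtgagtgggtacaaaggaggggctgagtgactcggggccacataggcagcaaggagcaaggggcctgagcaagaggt
H2-DMb1 promoter, chr17:34152941-34153240: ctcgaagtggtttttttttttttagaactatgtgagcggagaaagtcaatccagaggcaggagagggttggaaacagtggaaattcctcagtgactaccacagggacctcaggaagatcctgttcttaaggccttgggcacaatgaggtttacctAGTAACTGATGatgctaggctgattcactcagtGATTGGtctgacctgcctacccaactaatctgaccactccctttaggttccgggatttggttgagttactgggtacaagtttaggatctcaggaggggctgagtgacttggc
The Y box was in a promoter window of all 7 genes in the table, against 16.1% of the 32851 promoter windows. For H2-DMa only the later of its windows held it. Both H2-DMa windows lie farther from H2-DMb2 than the H2-DMa start annotated on mm9 does. They may therefore not cover the promoter at that start, which was not searched. The X box in these letters was in 3, H2-Eb1, H2-DMb1 and H2-Oa, against 0.968%. With at most 1 of its letters different, an alternative chosen after the data were seen, 5 genes had both boxes, against 3.31% of windows. In H2-Eb1 the X box began 92 bases and the Y box 60 bases before the start, with 21 bases between them, and in H2-DMb1 the gap was 22 bases. An X box followed by a Y box after 15 to 25 bases was in 3 of the 32851 windows, and 2 of the 3 belonged to these genes. No EICE, tandem IRF element or AP-1-IRF composite was in any of the 8 windows of the 7 genes, in which EICE has a share of 2.72% over all windows. The H2-Eb1 summit lay 16 bp past the start and the H2-DMb2 summit 199 bp before this start, and the nearest summit to the H2-DMb1 start was the same H2-DMb2 summit. Both boxes were thus spelled out in H2-DMb1, which had no optimal summit near its start, and in H2-Eb1, which had a weak one.

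The strongest IRF4 sites of the class II block lay outside the 10 genes. From 10 kb before H2-Oa to the end of Btnl2, chromosome 17 held 35 optimal summits in 287 kb, 23 of them in range of the genes described. Of 6 with a signal of 100 or more, 2 were in range, those at H2-DMb2 and H2-Oa. The other 4 had signals of 333 and 161 near Psmb9, 217 in Psmb8, both proteasome subunit genes for class I peptides, and 300.3 near H2-Ea. RefSeq lists H2-Ea for the C57BL/6J reference as a transcribed pseudogene, but in strains of some other MHC types it encodes the alpha chain of I-E. Whether it is intact in CH12.LX, whose strain label names type H-2a, was not examined. The summit of 300.3 (34347676 to 34347896), 3177 bp from H2-Ea, had 156 in replicate 2 and 142 in replicate 1.

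Other genes of the pathway were taken from a list of 27: promoter factors, Ciita regulators, processing and turnover genes, and further class II genes. A summit was in range of 25, beside 62.3% of all protein-coding genes, and the median signal over their 116 distinct summits was 38.3, against 41.4 for the whole optimal list. Ctsl and Cd63 had none. Those with the strongest summits included H2-Eb2 and H2-Ea, which share the one of 300.3, Lgmn (266.6), an endosomal protease of the invariant chain, Zbtb32 (259.98), a repressor of Ciita, and Prdm1 (231), the repressor of Ciita in plasma cells. All 7 factors that build on the X and Y boxes had a summit, the strongest in Creb1 (178), and the median over their 20 summits was 36.8, also below that of the whole list. In a list of 14 class I presentation genes, all had a summit. The median was 53.2 for the class II summits, against 53.5 for those of class I. The strongest quartile of the optimal list held 10 of 36 class II summits and 23 of 52 class I summits, and the weakest quartile 6 and 10. A summit of 200 or more was in range of 4 of 10 class II genes and 7 of 14 class I genes, beside 4.36% of all protein-coding genes. At the start, 5 of 10 class II genes and 11 of 14 class I genes had one, beside 31.9% of all protein-coding genes. No test was made of these differences, and the lists were chosen with earlier results known.

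**Figure D4:**
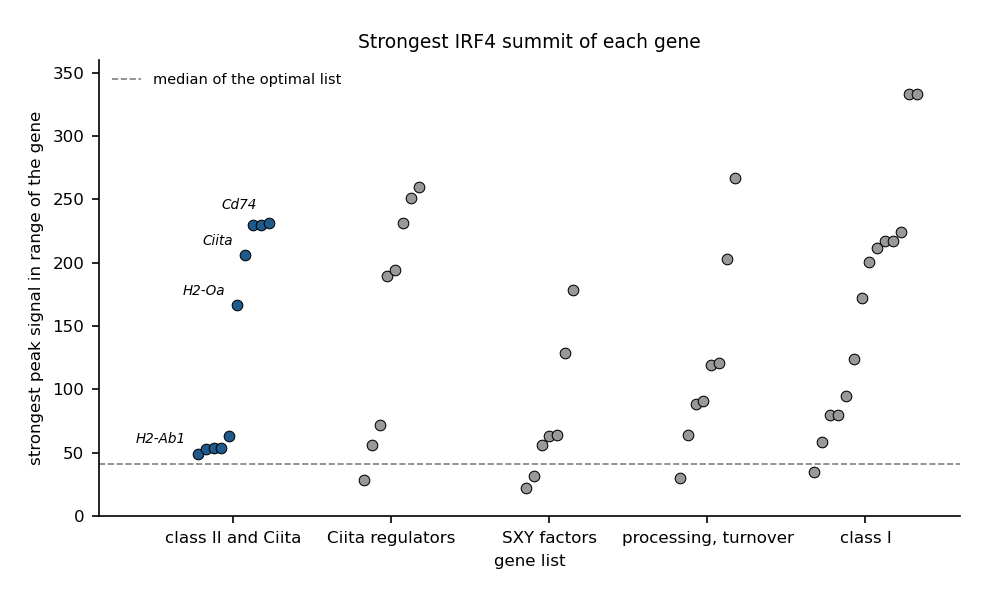
Signal of the strongest optimal summit in range of each gene (vertical axis, depositors' units), for the 10 class II and Ciita genes and 4 of the other lists (horizontal axis); each point is 1 gene, and genes that share a summit have equal values. The class II genes form an upper set from 166 to 231 and a lower set from 49.1 to 63.2; the dashed line is the median of the optimal list, 41.4.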

How the data were processed

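IRF4 ChIP-seq of 2 biological replicates of CH12.LX was analysed from 6 deposited peak lists. Per the deposited descriptions, relaxed lists of each replicate (300000 peaks in replicate 2 and 215095 in replicate 1) and of both pooled (300000) were made on mm10, and IDR then gave an optimal set of 44058 and a conservative set of 35879. The mm9 list (27671) came from mm9 alignments of both replicates. Peak caller and aligner: not given in the sources used here. A separate control experiment that the labels name as possible was not used. The deposited signal value has no stated scale; the summit offset is a position in bases. Depth is unknown, so no counting intervals are given.

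Gene bodies were RefSeq GRCm38.p6, with strands from the RefSeq promoter table or, by name, from GENCODE mm9, so 20923 of 21631 protein-coding genes had a usable start. A summit is the peak start plus its offset. Replicate signals are those of the nearest summit within 100 bp. Motifs were searched on mm9 within 50 bp of summits on both strands. Coordinates were never converted between builds. No test was run: there is 1 group, and lists are described by counts beside all genes or peaks. The members, lists and motifs were chosen with earlier results of these data known. All 10 genes are named, with the 6 pathway genes of strongest summit, of which 1 is not reported here; Ctsl, Cd63, Creb1, Brd2, Psmb9, Psmb8 and Btnl2 were named after their values were seen. Python 3.11.15, numpy 2.4.6, pandas 2.3.3, biopython 1.88 and matplotlib 3.10.9 were used, and the counting was tested on simulated data.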

Additional observations from a re-analysis of the deposited data

How the results depend on the processing

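Of 33 alternatives, 27 stayed within 1.5 times the value or within the spread. All 10 genes had a summit with the 20 kb range, the conservative list and each replicate alone, while 7 had one in the gene body only and 8 within 5 kb. Shares over all protein-coding genes are given above only for the optimal list and, within 10 kb, for the conservative list. Counts of genes under the other settings have no such share beside them and are not read against one. Distinct summits were 21 in gene bodies only and 22 with optimal peaks at or above the median signal, against 36. Leaving out 1 replicate gave 37 to 48 distinct summits, 5 to 8 genes with a summit at the start and a median percentile of 46.3 to 59.9. The larger counts and the lower percentile came without replicate 2, where the median summit of the genes lay below the middle of the list and not above it, and the cause was not tested. Promoters with both boxes were 3, against 7 with the Y box alone and 5 with an X box of at most 1 letter different, which by construction admit more words. The last setting, the starts of the promoter table and the giving of each summit to its nearest gene only, which leaves H2-DMb1 without one, were chosen after the data were seen. No paired analysis was possible because both replicates belong to 1 group. Unknown depth limits what can be said of weak sites.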
